A study of Mus musculus with 12 samples.

Results

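The 10 genes described here encode the enzymes and partners of the 2 ubiquitin-like conjugation reactions of autophagy: Atg7, Atg3, Atg10, Atg12, Atg5, Atg16l1, Atg4a, Atg4b, Atg4c and Atg4d. They were chosen by name from a table of 23366 gene symbols, and all 10 were in it and passed the filter on low counts. Autophagy is the pathway by which cells enclose cytoplasm in a double membrane and deliver it to the lysosome. ATG7 is the activating enzyme of both reactions. Through ATG10, which acts as the second enzyme, it joins the small protein ATG12 to ATG5, and ATG16L1 binds the product to form a complex on the growing membrane. Through ATG3, it joins proteins of the ATG8 family (LC3 and GABARAP) to a membrane lipid at the place where that complex sits. The ATG4 proteases trim new ATG8 proteins before conjugation and later release them from the lipid.

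RNA was sequenced from mouse embryonic fibroblasts of strain C57BL/6 at passages 3 to 5, either wild type or Carm1 knockout. CARM1 methylates arginine residues of histone H3 and acts as a transcriptional coactivator, and the study asked how it takes part in autophagy under starvation. Both genotypes were sampled in rich medium (DMEM with 10% FBS, labelled 0 h) or after 18 h in DMEM without glucose with 10% dialyzed FBS. Each of the 4 groups had 2 libraries. The medium change also replaced ordinary serum by dialyzed serum, and no library gives cells kept in rich medium for 18 h, so effects of glucose, of serum dialysis and of time cannot be told apart. Which exons the knockout lacks, and whether the cells of a genotype came from 1 embryo or several, is not stated in the labels. No label says that the 2 libraries of a group came from separate cultures. The p-values below therefore describe only how these libraries scatter, and that scatter may be technical.

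Carm1, the check of the knockout, stood at 206 ± 2.10 CPM in wild-type rich and 169.9 ± 8.005 CPM in wild-type starved cells (mean ± SD, n = 2), and at 59.4 ± 16.0 and 56.3 ± 3.35 CPM in the same groups of the knockout. Counts over genes ran from 8447016, in replicate 1 of the knockout rich group, to 28155438 per library. The log2 ratios between replicates had an SD of 0.155 to 0.163 over 9392 genes in 3 groups and of 0.77 in the knockout rich group. That pair stood apart, and many of the members' values that turn on it are given with and without its replicates. Fibroblast markers were high in sum (4852 to 8571 CPM over 9 genes), but the genotypes differed among them. Thy1 stood at 0.0465 to 0.214 CPM in wild-type and 124 to 180 CPM in knockout libraries. The proteoglycan gene Dcn stood at 0.372 to 0.762 and 1172 to 1954 CPM. Col3a1, Pdgfra, Pdgfrb and Lum were also higher in all knockout than in all wild-type libraries, and Col1a2 and Vim overlapped. Col1a1 went the other way, at 1400 to 2807 CPM in wild-type and 636 to 1207 CPM in knockout libraries. The sum of 4 endothelial markers ran from 2.09 to 5.02 CPM in wild-type and from 132 to 245 CPM in knockout libraries. In the knockout almost all of it came from Cdh5 (126 to 240 CPM, against 0 to 0.0713 CPM in wild-type libraries). Pecam1 was also higher in the knockout, and Tek overlapped. Kdr went the other way, at 1.78 to 4.50 CPM in wild-type and 0 to 0.0861 CPM in knockout libraries. The sum of 2 neuronal markers ran up to 0.0693 CPM in wild-type and from 18.8 to 29.9 CPM in knockout libraries. The knockout sum came almost all from Snap25 (18.8 to 29.7 CPM), with Rbfox3 at 0 to 0.246 CPM. Leukocyte markers summed to at most 7.01 CPM (5 genes), and epithelial markers to at most 3.74 CPM (4 genes). The part of these differences in the genotype comparisons was not tested. In bulk RNA, fewer cells of a type and less RNA per cell cannot be told apart.

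The promoters that hold an E-box core are shown because CARM1 has been studied as a coactivator of TFEB, a factor that binds such boxes in autophagy and lysosome genes. Windows of 300 bases (250 before to 50 after the start site, RefSeq, build GRCm38.p6) were matched by symbol for 8 of the 10 genes, in 10 windows. No window was matched for Atg12 and Atg16l1, so the promoter search does not cover them. The sequences are the 250 bases before the start site, 5′ to 3′, with the letters CACGTG in capitals.
Atg3, chr16:45158579-45158828, plus strand: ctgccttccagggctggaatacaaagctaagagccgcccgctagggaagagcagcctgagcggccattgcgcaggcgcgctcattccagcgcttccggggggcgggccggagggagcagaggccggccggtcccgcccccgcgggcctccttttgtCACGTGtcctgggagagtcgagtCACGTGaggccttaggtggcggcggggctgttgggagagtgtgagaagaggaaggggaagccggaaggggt
Atg5, chr10:44268089-44268338, plus strand: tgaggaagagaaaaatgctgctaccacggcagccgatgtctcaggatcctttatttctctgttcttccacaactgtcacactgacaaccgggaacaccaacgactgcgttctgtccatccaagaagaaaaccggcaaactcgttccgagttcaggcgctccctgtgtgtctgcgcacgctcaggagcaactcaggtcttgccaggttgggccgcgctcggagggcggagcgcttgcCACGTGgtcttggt
Atg7, chr6:114670846-114671095, plus strand: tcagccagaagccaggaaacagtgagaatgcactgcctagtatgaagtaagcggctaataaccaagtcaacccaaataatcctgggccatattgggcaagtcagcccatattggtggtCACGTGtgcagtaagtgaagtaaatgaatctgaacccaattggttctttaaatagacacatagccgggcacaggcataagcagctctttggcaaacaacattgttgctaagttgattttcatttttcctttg
Atg3 holds the box at 2 places, starting 94 and 71 bases before the start site, Atg5 at 1 place 14 bases before it, and Atg7 at 1 place 132 bases before it. The box reads the same on both strands, and it occurred in 3 of the 10 windows and in 7.15% of all 32851 windows of that length. Neither the FOXO site GTAAACA nor the C/EBP-ATF composite TGATGNAA, each searched on both strands, was found in the matched windows (3.65% and 3.97% of all windows hold them). A match describes the letters only.

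Atg12 had the clearest pattern of the 10 genes. Its level was 27.8 and 28.5 CPM in wild-type rich and 85.5 and 86.9 CPM in wild-type starved libraries. In the knockout it was 33.7 CPM in both rich libraries and 57.4 and 58.0 CPM in the starved libraries. No 2 groups overlapped: wild-type starved cells were highest, followed by knockout starved, knockout rich and wild-type rich cells.

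Starvation raised Atg12 in wild-type cells by 1.61 ± 0.12 on the log2 scale (3.06-fold; edgeR quasi-likelihood test, Benjamini-Hochberg adjusted p = 0.000313), a log2 fold change above that of 96.0% of all genes tested. In knockout cells it rose by 0.78 ± 0.12 (1.71-fold, adjusted p = 0.00697), and by 0.80 and 0.78 without rich replicate 1 or 2. The difference between these responses was itself past the threshold (-0.84 ± 0.17, adjusted p = 0.0202). Starved knockout cells held less Atg12 than starved wild-type cells (-0.58 ± 0.12, adjusted p = 0.00499), whereas in rich medium the difference was 0.26 ± 0.12 (adjusted p = 0.118) and was called when either knockout rich library was left out. The call in wild-type starvation held in 18 of 18 alternative analyses. That of the difference between the responses held in 11 of 17, and each of the 6 losses came from leaving out 1 of the 6 libraries other than the knockout rich pair (adjusted p up to 0.128 over the alternatives). Leaving out a knockout rich replicate kept it, at -0.79 without replicate 1 and -0.83 without replicate 2. Over all fits with 1 library left out the value ran from -0.85 to -0.79. The main fit called 13.3% of all genes for this difference. The fits that lost the call had a smaller share, and those without a knockout rich replicate a larger one.

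The Atg12 values did not share the wide spread of the knockout rich pair: the replicates there differed by 1.00-fold, and in no group by more than 1.03-fold. Atg12 overlaps the end of the adaptor complex gene Ap3s1 in the RefSeq annotation, and without strand, reads of overlapping genes cannot be told apart. Ap3s1 stood at 53.0 and 55.7 CPM in wild-type rich and at 52.0 and 55.3 CPM in wild-type starved cells. It did not move with Atg12 in wild-type starvation (-0.02 ± 0.36, adjusted p = 0.993). In the knockout rich pair it stood at 150 and 60.4 CPM, where Atg12 was even. The part of reads from Ap3s1 in the Atg12 counts was not tested.

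**Figure D1:**
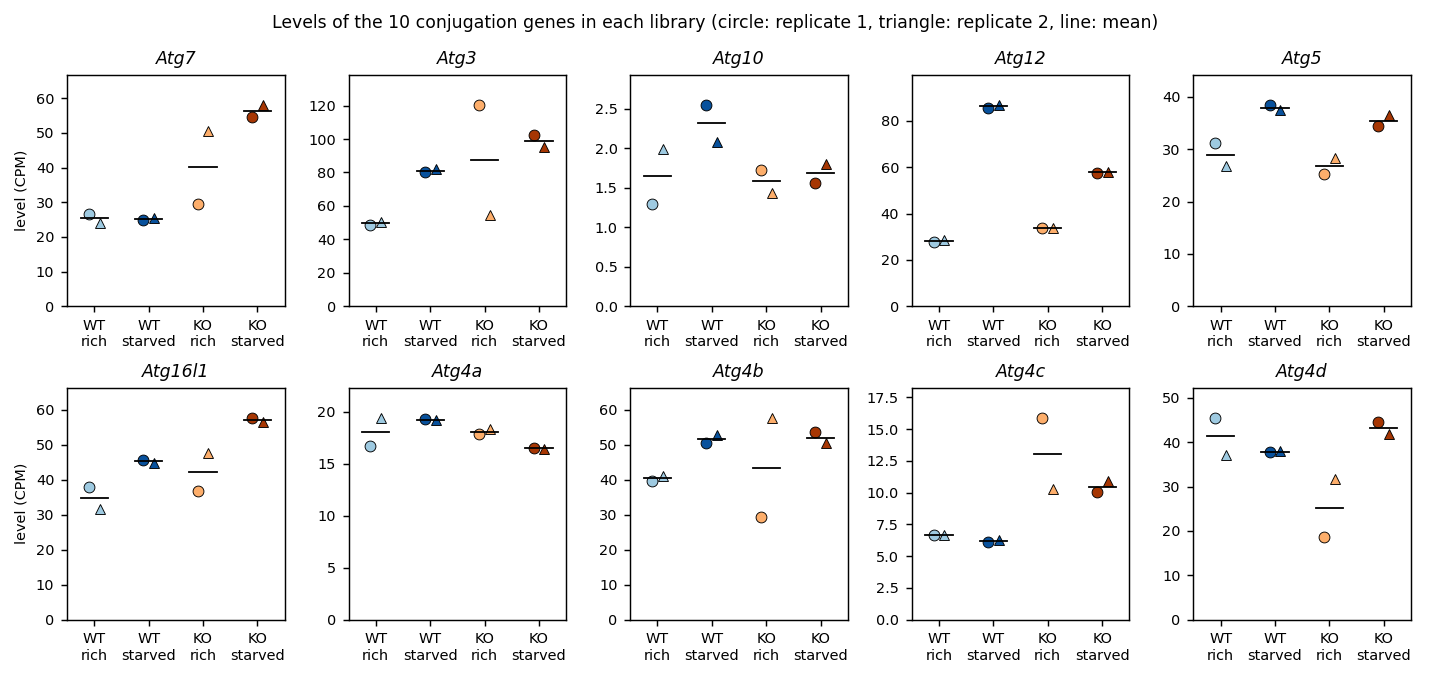
Level (CPM, y axis from 0) of each of the 10 genes in each library, by group on the x axis. Circles are replicate 1, triangles replicate 2 and lines the group mean (n = 2). Atg12 separates all 4 groups, with 85.5 and 86.9 CPM in wild-type starved cells, while in Atg3, Atg7, Atg4b and Atg4d the 2 knockout rich libraries lie far apart.

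Across the 10 genes, starvation of wild-type cells left 1 past the threshold, Atg12, with 0 lower. For comparison, 32.9% of the 13882 genes tested were called, 14.8% higher and 18.0% lower. The members' median log2 fold change was 0.37, against 0.00 over all genes tested, and 7 of the 10 values lay above 0. The replicates of rich and starved cells did not overlap for 7 of the 10 members, beside 81.7% of all genes. The count rose to 5 when the fit held just the 4 wild-type libraries, in limma-voom with library quality weights, and when either of the knockout rich libraries was left out (there with 66.8% and 67.2% of all genes called). In each of these the members called were Atg3, Atg12, Atg5, Atg16l1 and Atg4b, all higher. With just the 4 wild-type libraries 72.1% of all genes were called, and with quality weights 67.7%.

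In knockout starvation 1 of 10 was called, again Atg12, beside 18.2% of all genes (8.44% higher and 9.78% lower). The median was 0.32, against 0.00 over all genes, and 8 of 10 values were above 0. Replicates did not overlap for 6 of 10 members, beside 55.3% of all genes. The call was lost when either knockout starved library was left out. It was also lost when the fit held just the 4 knockout libraries, and in limma-voom with quality weights. The Atg12 value was 0.78 without starved replicate 1 or 2, 0.75 with the 4 knockout libraries and 0.78 with quality weights. All of these fits called a smaller share of all genes than 18.2%, at 0% with the 4 knockout libraries and 9.5% with quality weights. Each of these called 0 members, with 1 or 2 at an unadjusted p under 0.05. Without knockout rich replicate 1, 5 members were called (Atg3, Atg12, Atg5, Atg16l1 and Atg4d, all higher). Without replicate 2, 8 were called, 6 higher and 2 lower. These fits called 49.8% and 59.1% of all genes. Both starvation comparisons use a shared estimate of the spread, so the wide knockout rich pair enters the wild-type test as well.

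Atg7, the activating enzyme of both reactions, was higher in starved knockout than in starved wild-type cells. It stood at 26.7 and 24.1 CPM in wild-type rich and 25.03 and 25.3 CPM in wild-type starved libraries. The knockout libraries had 29.5 and 50.6 CPM in rich medium and 54.6 and 58.1 CPM after starvation. Every knockout library thus exceeded every wild-type library, and the knockout starved pair was the highest.

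After starvation the knockout held 2.24-fold more Atg7 (log2 fold change 1.16 ± 0.24, edgeR adjusted p = 0.00574), a call that held in 18 of 18 alternatives. In rich medium the difference was 0.67 ± 0.24 (edgeR adjusted p = 0.06). It was 0.21 without knockout rich replicate 2 and 0.96 without replicate 1. Of 18 alternatives, 6 called this rich medium difference, among them RLE factors, the 5 CPM filter, DESeq2, and limma-voom without and with quality weights. Starvation changed Atg7 by -0.01 ± 0.24 in wild-type (adjusted p = 0.993) and 0.48 ± 0.24 in knockout cells (adjusted p = 0.209). The knockout value was 0.17 without rich replicate 1 (adjusted p = 0.155) and 0.94 without replicate 2 (adjusted p = 4.9e-09). The difference between the responses was 0.49 ± 0.34 (adjusted p = 0.38), at 0.21 and 0.95 without these libraries, the second of which passed.

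Neither second enzyme passed the threshold in any comparison. Atg3, which hands ATG8 proteins to the lipid, stood at 48.8 and 50.5 CPM in wild-type rich and 80.1 and 82.1 CPM in wild-type starved libraries. In the knockout it stood at 120 and 54.5 CPM in rich medium and at 103 and 95.1 CPM after starvation. Between genotypes in rich medium the value was 0.81 ± 0.32 (edgeR adjusted p = 0.0794). It was 0.09 without knockout rich replicate 1 and 1.27 without replicate 2. The wild-type pairs lay apart (0.71 ± 0.32, adjusted p = 0.134; 6.67e-14 to 0.351 over the alternatives, of which 4 called it). In the knockout the starvation value was 0.18 ± 0.32 (adjusted p = 0.732). It took opposite signs when a rich library was left out, at 0.88 without replicate 1 and -0.28 without replicate 2, and both passed the threshold.

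Atg10, the second enzyme of the ATG12 reaction, had the fewest counts of the 10 genes, at 14 to 64 per library. It stood at 1.30 and 2.00 CPM in wild-type rich, 2.55 and 2.08 in wild-type starved, 1.72 and 1.44 in knockout rich and 1.56 and 1.81 CPM in knockout starved libraries. Its largest change was 0.47 ± 0.31 in wild-type starvation (adjusted p = 0.279), where the pairs did not overlap. It was 0.21 without wild-type rich replicate 1 and 0.82 without replicate 2, and neither passed.

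Atg5, the acceptor of ATG12, had similar starvation values in both genotypes. The libraries held 31.1 and 26.7 CPM in wild-type rich cells, 38.5 and 37.4 in wild-type starved cells, 25.3 and 28.3 in knockout rich cells, and 34.3 and 36.5 CPM in knockout starved cells. Starved pairs lay above rich pairs in both genotypes, while the 2 rich groups overlapped. The starvation values were 0.39 ± 0.15 in wild-type (adjusted p = 0.0818) and 0.40 ± 0.15 in knockout cells (adjusted p = 0.11), with a difference of 0.01 ± 0.21 (adjusted p = 1.00). Without knockout rich replicate 1 or 2 the knockout value was 0.34 or 0.49, and both passed.

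Atg16l1, which places the complex on the membrane, stood at 37.9 and 31.7 CPM in wild-type rich and 45.8 and 44.8 CPM in wild-type starved libraries. The knockout had 36.9 and 47.8 CPM in rich medium and 57.7 and 56.7 CPM after starvation. Knockout starved cells were highest, and the 2 rich groups overlapped. Between genotypes in rich medium the value was 0.29 ± 0.17 (edgeR adjusted p = 0.205). It was 0.42 without knockout rich replicate 1 and 0.08 without replicate 2. The starvation values were 0.38 ± 0.17 (adjusted p = 0.127) in wild-type and 0.43 ± 0.17 (adjusted p = 0.124) in knockout cells. The knockout value was 0.28 without rich replicate 1 and 0.64 without replicate 2, and both passed. After starvation the genotypes differed by 0.34 ± 0.17 (adjusted p = 0.128; 4 of 18 alternatives called it).

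**Figure D2:**
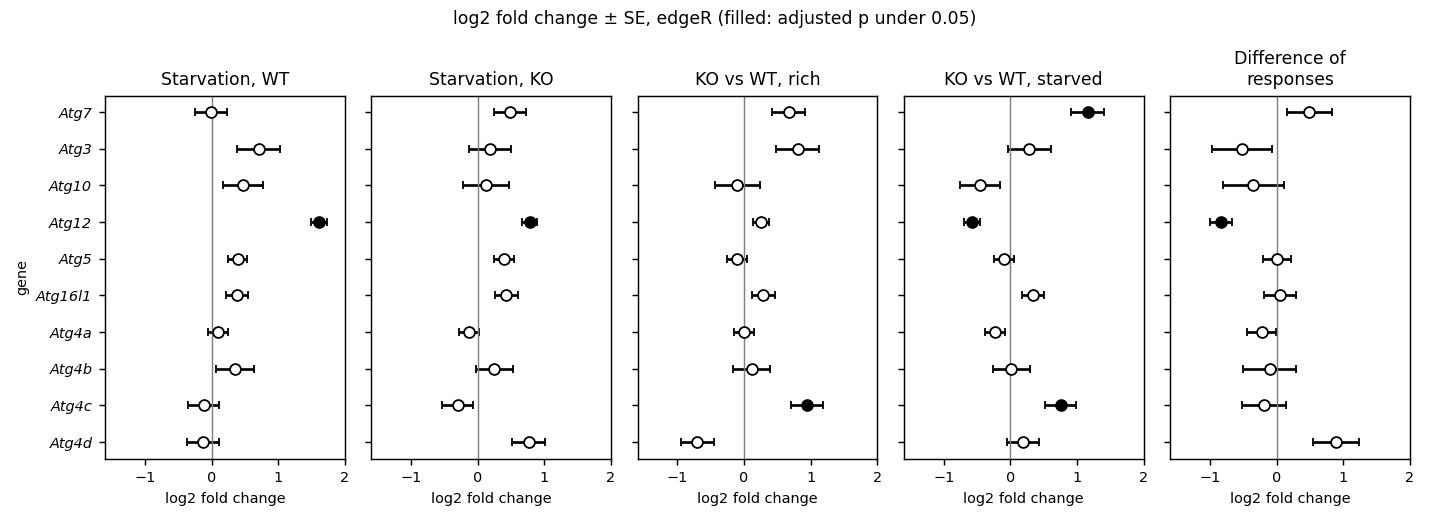
log2 fold change ± SE (x axis) of each gene (rows) in the 5 comparisons, from edgeR over all 8 libraries. Filled points passed an adjusted p of 0.05: Atg12 in both starvation comparisons, after starvation between genotypes and in the difference, Atg7 after starvation, and Atg4c in both genotype comparisons.

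The 4 protease genes went separate ways, and 1 of them, Atg4c, was called. Atg4c stood at 6.69 and 6.70 CPM in wild-type rich and at 6.10 and 6.27 CPM in wild-type starved libraries. The knockout had 15.9 and 10.3 CPM in rich medium and 10.0 and 10.9 CPM after starvation. All 4 knockout libraries lay above all 4 wild-type libraries.

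Knockout cells held 1.92-fold more Atg4c in rich medium (log2 fold change 0.94 ± 0.24, edgeR adjusted p = 0.0162) and 1.69-fold more after starvation (0.76 ± 0.23, adjusted p = 0.0276). These calls held in 14 and 12 of 18 alternatives. In rich medium the value was 0.57 without knockout rich replicate 1, the lowest of the alternatives, and 1.24 without replicate 2, and both passed. Starvation values were -0.12 ± 0.23 in wild-type (adjusted p = 0.75) and -0.30 ± 0.23 in knockout cells (adjusted p = 0.405). The knockout value was 0.0484 without rich replicate 1, which did not pass, and -0.59 without replicate 2, which did.

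Atg4d had its lowest values in the knockout rich group. It stood at 45.4 and 37.2 CPM in wild-type rich, 37.8 and 37.9 in wild-type starved, 18.6 and 31.7 in knockout rich and 44.5 and 41.9 CPM in knockout starved libraries. The other 6 libraries lay between 37.2 and 45.4 CPM. In knockout starvation the value was 0.77 ± 0.25 (adjusted p = 0.0744), in rich medium between genotypes -0.70 ± 0.25 (adjusted p = 0.0547), and the difference between responses was 0.89 ± 0.35 (adjusted p = 0.139). All 3 passed when a knockout rich library was left out, with smaller values without replicate 1 (0.47, -0.42 and 0.61) and larger values without replicate 2 (1.23, -1.16 and 1.35).

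The end of Atg4d overlaps Kri1, a ribosome assembly gene, in the RefSeq annotation. Kri1 went from 72.8 and 76.4 CPM in knockout rich to 132 and 129 CPM in knockout starved cells (0.80 ± 0.11, adjusted p = 0.00544), and its wild-type starvation value was 0.01 ± 0.11. Between genotypes Kri1 had -0.28 ± 0.11 in rich medium and 0.51 ± 0.11 after starvation, against -0.70 and 0.19 for Atg4d. Its knockout rich libraries were close to each other, where those of Atg4d lay apart. The part of reads from Kri1 in the Atg4d counts was not tested.

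Atg4b, the most active of the proteases on ATG8 proteins, stood at 39.7 and 41.0 CPM in wild-type rich and 50.3 and 52.8 CPM in wild-type starved libraries. The knockout had 29.3 and 57.6 CPM in rich medium and 53.6 and 50.4 CPM after starvation. Only the wild-type pairs lay apart (0.35 ± 0.28, adjusted p = 0.374, called in 4 of 18 alternatives). In the knockout the starvation value was 0.25 ± 0.28, with opposite signs without replicate 1 (-0.13) and without replicate 2 (0.84) of the rich group.

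Atg4a varied least, with a ratio of 1.17 between its highest and lowest group means. It stood at 16.7 and 19.4 CPM in wild-type rich, 19.3 and 19.2 in wild-type starved, 17.8 and 18.3 in knockout rich and 16.6 and 16.4 CPM in knockout starved libraries. The largest of its differences between groups was -0.22 ± 0.15, between genotypes after starvation (adjusted p = 0.245). It overlaps the end of the proteasome gene Psmd10. In rich medium Psmd10 was higher in the knockout (0.93 ± 0.18, adjusted p = 0.00607), where Atg4a had a value of 0.00 ± 0.15. The part of reads from Psmd10 in the Atg4a counts was not tested.

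Between genotypes in rich medium 1 of 10 genes was called (Atg4c, higher), beside 44.0% of all genes (23.4% higher and 20.6% lower). The median log2 fold change was 0.19, against 0.00 over all genes. Replicates did not overlap for 5 members, beside 69.9% of all genes. Leaving out knockout rich replicate 1 gave 6 calls (65.8% of all genes) and leaving out replicate 2 gave 5 (72.7% of all genes). There were 0 calls when either wild-type rich library was left out or when the fit held just these 4 libraries. In the edgeR fits with 0 calls, 1 or 2 members were at an unadjusted p under 0.05. These fits called a smaller share of all genes than 44.0%, at 24.6% with just these 4 libraries.

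After starvation 3 were called between genotypes, Atg7 and Atg4c higher and Atg12 lower, beside 54.6% of all genes (27.8% higher and 26.8% lower). The median was 0.10, against -0.02 over all genes. Replicates did not overlap for 9 members, beside 89.6% of all genes. Without a knockout starved library Atg7 alone remained called. Those fits called a smaller share of all genes than 54.6%. Without a knockout rich replicate 6 were called, with Atg3, Atg16l1 and Atg4d added, all higher in the knockout, beside 80.2% and 80.3% of all genes. The 4 two-group comparisons share libraries in pairs, so their values are set side by side and are not independent of one another.

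The difference between the responses passed in 1 of 10 genes, Atg12 (a smaller rise in the knockout), beside 13.3% of all genes (7.42% higher and 5.91% lower). The median was -0.15, against 0.00 over all genes. With knockout rich replicate 1 left out 3 members passed (Atg12, Atg4b and Atg4d), and with replicate 2 left out there were 5, beside 49.4% and 56.4% of all genes.

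Ratios within a library need no scaling between libraries. Per Atg5 count, Atg12 had 0.893 and 1.07 counts in wild-type rich and 2.22 and 2.32 in wild-type starved libraries, against 1.33 and 1.19 in knockout rich and 1.67 and 1.59 in knockout starved libraries. Gene lengths enter these ratios, so they compare libraries and not the abundance of the 2 genes. The order of the groups was that of the Atg12 levels. Atg16l1 per Atg5 was nearly even in the 4 wild-type libraries, at 1.19 to 1.22, and ran from 1.46 to 1.69 in the 4 knockout libraries. Atg12 per Atg7 was 1.04 and 1.18 in wild-type rich and 3.42 and 3.43 in wild-type starved libraries. In the knockout it was 1.14 and 0.665 in rich medium and 1.05 and 0.999 after starvation. The wild-type starved pair stood far above the other 6 libraries.

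**Figure D3:**
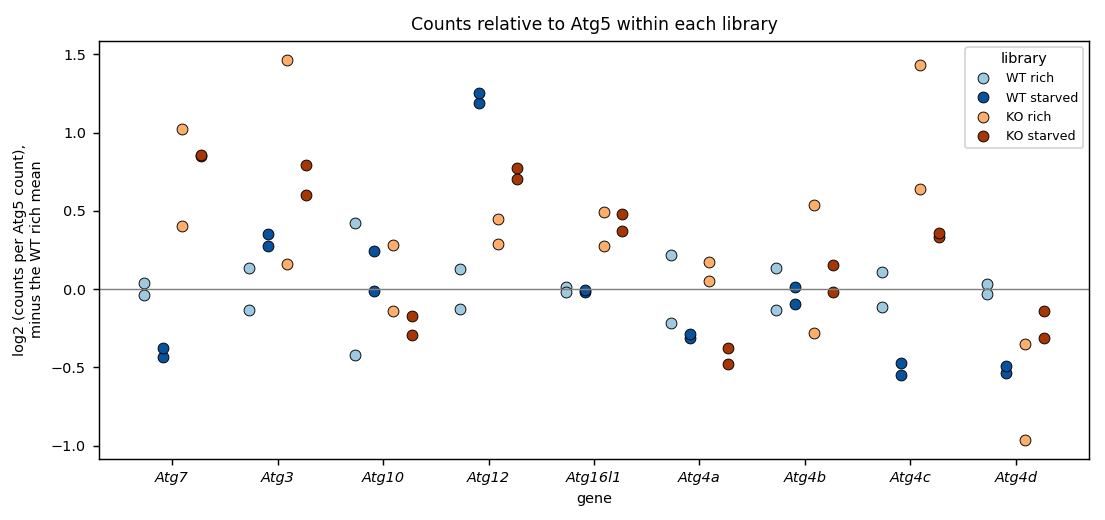
log2 of each gene's counts per Atg5 count in each library, minus the mean of the wild-type rich pair (y axis), by gene (x axis) and group (colour), 2 points per group. Atg12 is highest in wild-type starved cells (2.22 and 2.32 counts per Atg5 count). Atg16l1 is nearly even in wild-type libraries (1.19 to 1.22) and runs from 1.46 to 1.69 in knockout libraries.

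The other steps of autophagy were compared through lists of their genes. Over all genes, 14.8% were called higher and 18.0% lower in wild-type starvation, and 8.44% and 9.78% in knockout starvation. Genes of the ULK complex, which starts autophagy, were called higher in 2 and lower in 1 of 5 cases in wild-type starvation (median 0.81), and 0 and 2 in the knockout (median -0.21). For the lipid kinase complex around Pik3c3, 5 rose and 0 fell of 7 in wild-type cells (median 0.56), and 0 rose and 1 fell in the knockout (median 0.19). Of 10 lipid transfer and WIPI genes, 4 rose and 0 fell in wild-type (median 0.40), and 2 rose and 1 fell in knockout cells (median 0.06). The 5 ATG8 genes, whose products are the substrates of ATG4, ATG7 and ATG3, had 3 rises and 0 falls in wild-type (median 0.56) and 0 of either in the knockout (median -0.02; edgeR, with 1 at an unadjusted p under 0.05, and DESeq2 called 1 lower). Among them Gabarapl1 rose by 1.20 ± 0.13 in wild-type cells and had a value of -0.21 ± 0.13 in the knockout. Its level was already higher in the knockout in rich medium, at 108 against 26.3 CPM (adjusted p = 4.94e-05), and was 93.4 against 60.7 CPM after starvation (adjusted p = 0.00569).

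Partners of the conjugation complex were Wipi2, which recruits ATG16L1, Rb1cc1, which binds it, its relative Atg16l2, and Tecpr1. Of these 4, 1 was called higher in wild-type starvation and 1 in knockout starvation, Wipi2 in both cases (0.94 ± 0.22 and 0.89 ± 0.23, adjusted p = 0.0185 and 0.0358). Atg16l2 had values of 0.60 ± 0.31 and 1.03 ± 0.32 (adjusted p = 0.184 and 0.0689). The counts of all lists moved when a knockout rich library was left out, and so did the share of all genes called. In knockout starvation those fits called a far larger share of all genes than the 18.2% of the main fit, as given above. Without replicate 1 the ATG8 genes had 0 higher and 3 lower in knockout starvation, and without replicate 2 they had 2 higher and 1 lower. For the ULK complex these counts were 1 higher and 4 lower, and 2 higher and 3 lower. The lipid kinase genes had 3 higher and 2 lower, and 3 higher and 1 lower. The lipid transfer and WIPI genes had 3 higher and 4 lower (median -0.0751), and 6 higher and 2 lower (median 0.30). The partners had 3 higher and 0 lower, and 3 higher and 1 lower. In wild-type starvation leaving out either of these libraries gave more rises, at 4 of 4 partners, 4 of 5 ATG8, 4 of 5 ULK complex, 7 of 7 lipid kinase and 8 or 9 of 10 lipid transfer and WIPI genes, in fits that called 66.8% and 67.2% of all genes. The median of all genes was 0.00 in both starvation comparisons. Wipi2 counts among both the partners and the lipid transfer and WIPI genes. Rb1cc1 counts among both the partners and the ULK complex. The counts of these lists are therefore not independent, and whether lists differ from one another was not tested.

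**Figure D4:**
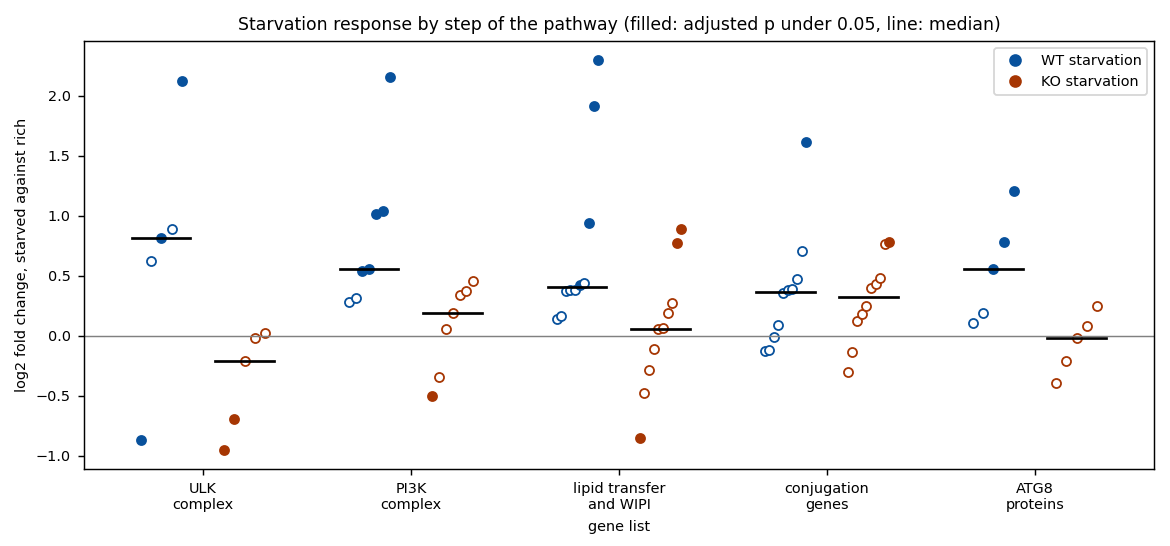
log2 fold change after starvation (y axis) of each gene, by list (x axis), in wild-type (blue, left) and knockout cells (brown, right). Filled points passed an adjusted p of 0.05 and lines are medians. The conjugation genes have medians of 0.37 and 0.32, with Atg12 the filled point in each genotype.

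Genes with a pattern most like that of Atg12 and Atg7, the members with the widest span between group means (1.61 and 1.16 on the log2 scale), were found by the distance between centred log2 CPM profiles over the 8 libraries, among 9930 genes of at least 5 CPM. For Atg12 the 5 nearest were the deubiquitinase gene Usp11 (distance 0.20), the mitochondrial protease gene Lonp1 (0.37), the threonyl-tRNA synthetase gene Tars (0.37), Vimp (0.39), which acts in the export of misfolded proteins from the endoplasmic reticulum, and the RNA helicase gene Ddx50 (0.42). Usp11 had group means of 27.5, 78.4, 31.0 and 58.1 CPM in wild-type rich, wild-type starved, knockout rich and knockout starved cells. For Atg7 they were the transporter gene Abcb6 (0.27), Tnip1 (0.28), which restrains NF-kB signalling, Pcnx (0.28), the cytochrome P450 reductase gene Por (0.29) and the adhesion gene Pvrl1 (0.29). The distances describe likeness in these libraries only.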

How the data were processed

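The members and the lists were chosen with earlier results of these data known. The authors deposited whole-number read counts per RefSeq transcript for 8 RNA-seq libraries, 2 in each of 4 groups. Groups and replicate numbers come from the sample titles, matched to columns by name. TopHat2 2.0.9, bedtools and mouse build mm9 are named, per the submitters' processing notes. For strand and for reads with several matches, the setting is not given in the sources used. The 4 chromatin immunoprecipitation and input samples of the series were not analysed here.

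Of 31055 transcript rows, the row with the highest total was kept per symbol. The members had 15 rows, and the rows not kept held at least 98.9% of the total of the kept one. Counts were filtered with filterByExpr and scaled by TMM in edgeR 4.0.16 (R 4.3.3), leaving 13882 genes. A fit with a mean per group over all 8 libraries, with 1 estimate of the spread, gave quasi-likelihood tests of 5 contrasts. Benjamini-Hochberg adjustment ran over all genes tested, with a threshold of 0.05. The SE is the size of the log2 fold change divided by the square root of F. The script was tested on simulated data. CPM use TMM-scaled library sizes, and 3 counts correspond to 0.107 to 0.355 CPM on total counts. Named are all members, up to 3 genes per list with the smallest p in wild-type starvation, and the 5 genes nearest in pattern to 2 members. Ap3s1, Kri1 and Psmd10 were added after their overlap was seen. A further list fixed for comparison is not reported here.

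Alternatives were RLE factors, total counts, no filter, a filter of 5 CPM in 2 or more libraries, limma-voom (limma 3.58.1) without and with library quality weights, DESeq2 1.42.0, a replicate block, only the libraries compared, the transcript with the lowest total, and leaving out each library.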

Additional observations from a re-analysis of the deposited data

Results flagged for a closer look

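Starvation responses that differed between the genotypes, by the test of the difference itself (edgeR quasi-likelihood, adjusted p under 0.05 over all genes), were found for 1 of the 10 conjugation genes, Atg12 (-0.84 on the log2 scale, a smaller rise in the knockout). Over all genes 13.3% passed this test, 5.91% with a lower value in the knockout. It was also passed by 8 of the 14 genes named by rule from the other lists: Atg13 (-2.14), Atg14 (-2.10), Ulk1 (-1.76), Atg9b (-1.72), Pik3c3 (-1.54), Wdr45 (-1.52), Gabarapl1 (-1.41) and Map1lc3b (-1.18). All 9 values, each the knockout response minus the wild-type response, are below 0. Such a value is a difference between responses and not between levels. After starvation Atg12, Atg13, Atg14, Ulk1, Pik3c3, Wdr45 and Map1lc3b were called lower in knockout than in wild-type cells. Atg9b and Gabarapl1 were called higher. Over all genes, 27.8% were called higher and 26.8% lower in that comparison. The 14 genes were named for the smallest p in wild-type starvation, a value that also enters the difference, so their count supports nothing about these lists.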

How the results depend on the processing

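The calls of Atg12 in wild-type starvation and of Atg7 between genotypes after starvation held in all 18 alternatives, at adjusted p values up to 0.0093 and 0.0473. For wild-type starvation 5 members were called with limma-voom and library quality weights and also with only the libraries compared, and 1 to 5 when 1 library was left out. For knockout starvation the count was 2 with DESeq2, 0 with quality weights, 0 with only the libraries compared, and 0 to 8 with 1 library left out. Between genotypes in rich medium it was 3 with RLE factors, 2 with total counts, 2 with no filter, 3 with the 5 CPM filter, 4 with DESeq2, 2 with limma-voom, 0 with only the libraries compared, and 0 to 6 with 1 library left out. Between genotypes after starvation it was 5 with quality weights, 6 with only the libraries compared, and 1 to 6 with 1 library left out. For the difference between the responses it was 0 to 5 with 1 library left out. A library left alone in its group was assumed to vary like the others, and fewer samples enter such a fit. The cause of the other changes was not tested. The share of all genes called moved as well, also with 1 library left out. In wild-type starvation it was 67.7% with quality weights and 72.1% with only the libraries compared, against 32.9% in the main fit. In knockout starvation it was 25.7% with DESeq2, 9.5% with quality weights and 0% with only the libraries compared, against 18.2%. Between genotypes in rich medium it was 34.6% with no filter, 48.9% with DESeq2 and 24.6% with only the libraries compared, against 44.0%. Between genotypes after starvation it was 80.5% with quality weights and 82.4% with only the libraries compared, against 54.6%. The filter of 5 CPM left out Atg10, which has no value there.

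The replicate numbers share a title number only. The deviations of same-numbered libraries correlated between -0.07 and 0.23 over the 6 pairs of groups, and with the replicate block the counts of members called were 1, 1, 1, 3 and 1 in the 5 comparisons, as without it. Total counts shifted the median of all genes by -0.14 between genotypes after starvation, and leaving out knockout rich replicate 2 shifted it by -0.12 in rich medium and by 0.18 in the difference between responses.

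Of 885 alternative values of single members, 38 changed sign, 3 of them past the threshold: without knockout rich replicate 2, Atg3 was -0.28 in knockout starvation, and Atg4b was -0.47 in rich medium between genotypes and 0.49 in the difference between responses. The other 35 were not past it. Ranges over the libraries left out were as follows. In the wild-type starvation comparison they were -0.0844 to 0.0607 for Atg7, -0.0111 to 0.20 for Atg4a and -0.26 to 0.0241 for Atg4d. In the knockout starvation comparison they were -0.13 to 0.84 for Atg4b, -0.59 to 0.0484 for Atg4c, -0.28 to 0.88 for Atg3 and -0.0255 to 0.25 for Atg10. In the genotype in rich medium comparison they were -0.22 to 0.00358 for Atg5, -0.11 to 0.11 for Atg4a, -0.37 to 0.25 for Atg10 and -0.47 to 0.47 for Atg4b. In the genotype after starvation comparison they were -0.0344 to 0.0568 for Atg4b. In the difference between responses they were -0.10 to 0.12 for Atg5, -0.0812 to 0.26 for Atg16l1, -0.98 to 0.20 for Atg3, -0.48 to 0.19 for Atg4c and -0.45 to 0.49 for Atg4b. Among the other settings, Atg4a between genotypes in rich medium was -0.0878 with total counts and -0.0243 with no filter, and Atg4b after starvation was -0.11 with total counts. In the difference between responses Atg5 was -0.00778 with RLE factors, -0.0249 with total counts, -0.0109 with DESeq2, -0.0157 with limma-voom, -0.0462 with quality weights and -0.00402 with the lowest transcript, and with quality weights Atg16l1 was -0.0417 and Atg4c 0.000244. Atg10 had the lowest depth, at 14 to 64 counts per library.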
